A study of Mus musculus with 4 samples.

Results

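Transcripts of 50 secreted proteins of blood coagulation, complement and the acute phase were compared between livers of fasted and re-fed mice. The 50 genes are a named list, and every spot that carried one of these gene names and was not a control spot counted as a member. All 50 were on the array, through 63 probes, out of 31896 gene names in all, and all 50 passed the filter on dim probes, as did 16105 gene names overall. Each of the 50 was well above background in both conditions on all 4 arrays, so no member entered through 1 condition alone.

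The mice were male C57BL/6J animals aged 8 to 12 weeks. The fasted group was killed after 24 h without food. The re-fed group went through the same 24 h fast and then had food for 2 h, so that both groups carried the fast, and no group of mice fed throughout was compared. RNA of 4 fasted and 4 re-fed livers was hybridised to 4 arrays, with 1 fasted and 1 re-fed liver on each. On such a 2-colour array the RNA of one liver carries the red dye Cy5 and that of the other the green dye Cy3, and each probe yields a ratio. The fasted liver carried Cy5 on replicates 1 and 2 and Cy3 on replicates 3 and 4. All ratios below are log2 of fasted over re-fed liver, a level is the log2 intensity of one liver in its own channel, and a gene is represented by its brightest probe. Levels of different probes were not compared with each other.

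The liver makes most of the proteins of plasma. Clotting factors circulate as inactive proteases that activate each other in sequence until thrombin cuts fibrinogen into fibrin, and protein C, protein S and plasmin limit or dissolve the clot. Complement is a parallel cascade that starts at C1q, at mannose-binding lectin or by the alternative pathway and meets at C3. In infection or injury, interleukin-6 and interleukin-1 act on hepatocytes through STAT3, NF-kB and the C/EBP factors, so that positive acute phase proteins such as serum amyloid A rise and negative ones such as fetuin-A fall.

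Ratios of different arrays correlated at 0.66 and 0.75 across the 19721 tested probes where the dyes ran the same way and at 0.22 to 0.40 where they were swapped. Across the 50 members alone these correlations were 0.34 and 0.59 for the same dyes and -0.21 to 0.26 for swapped dyes; genes are not independent replicates. The 10 hepatocyte markers were all measured, with a summed level of 19.26 to 19.61 in fasted and 19.06 to 19.51 in re-fed livers. These sums parted by dye and not by group, at 19.42 to 19.61 in Cy5 and 19.06 to 19.30 in Cy3. A difference between the dyes at an adjusted p under 0.10 (limma) was seen for 5 of the 10, where 15.3% of all genes had one. Summed markers of pancreatic acinar cells stood at 14.22 in the re-fed liver of replicate 3 and at 10.27 to 10.82 in the other livers. In whole liver, fewer cells of a type and less RNA per cell cannot be told apart.

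None of the 50 genes met both criteria for a call, which were an adjusted p under 0.10 (limma) together with a fold of 1.5 or more. Among all tested genes 1.82% were called higher and 2.14% were called lower in fasted liver by the same rule. Their mean ratios ran from -0.45 for Apcs to 1.28 for Saa2, and 9 members had an unadjusted p under 0.05, beside 3540 of 16105 genes. At an adjusted p under 0.10 with no limit on the fold, 2 members were higher, the clotting factor gene F5 and the protein S gene Pros1, and 0 were lower, where 4.94% of all genes were higher and 6.31% were lower. The 95% interval of the mean ratio lay within 1.5-fold either way for 33 of the 50 members, against 82.5% of all genes.

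The members varied more between arrays than most genes did. The median SD over the 4 arrays was 0.31 for the members and 0.19 over all tested genes. The members are brighter than most genes, with their median at percentile 92 of brightness. Neither the SD nor the share of intervals within 1.5-fold was compared at like brightness. The mean over the arrays with fasted liver in Cy5 and the mean over those with it in Cy3 had opposite signs for 25 of the 50 members, and for 7521 of 16105 genes. Replicate 2 gave the lowest ratio of the 4 arrays for 27 of the 50 members, whereas it did so for 25.7% of all genes. Replicate 3 gave the highest ratio for 18 members, against 21.5% of all genes.

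The median ratio of the members was 0.13, beside 0.00 over all genes tested, and 41 of the 50 means were above 0. This small excess was smaller when each array was centred on its median in place of the loess curve. The median of the members was then -0.011 and that of all genes -0.06, and 24 of the 50 means were above 0. The members are bright genes, with their median at percentile 92 of brightness, and loess sets the centre of the ratios by brightness, whereas median centring sets 1 centre for a whole array. Whether brightness accounts for the shift was not tested.

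**Figure D1:**
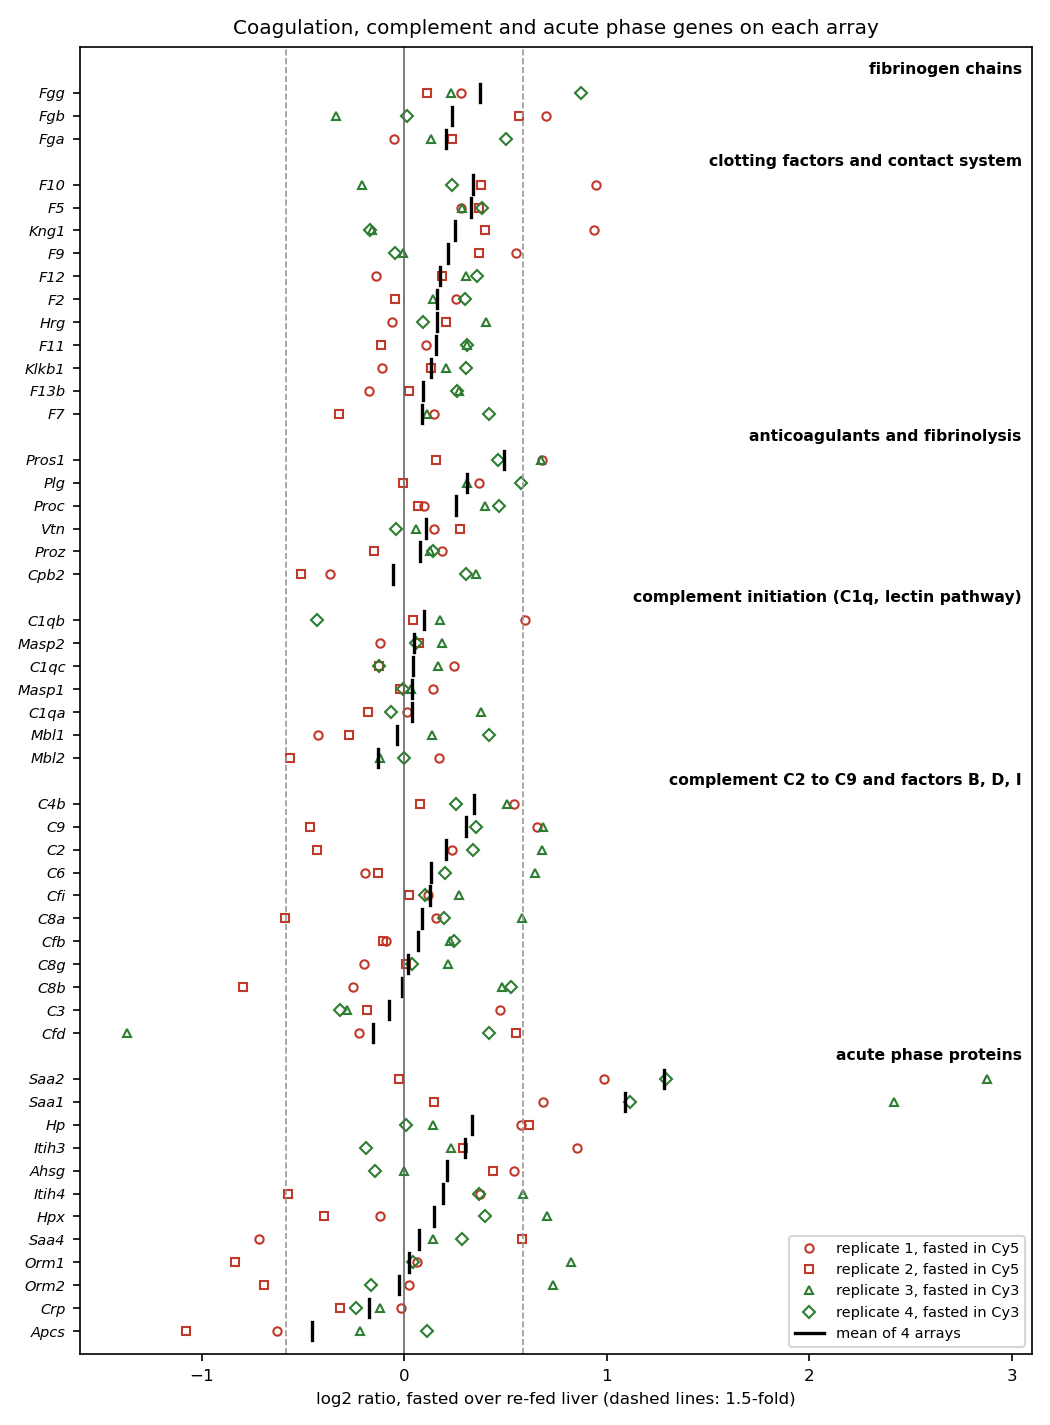
Log2 ratios of fasted over re-fed liver for the 50 genes, by role in the pathway, with 1 symbol for each of the 4 arrays (red symbols for fasted liver in Cy5, green for fasted liver in Cy3), a black bar for the mean and dashed lines at 1.5-fold. Saa2 and Saa1 stand apart at means of 1.28 and 1.09 but spread from -0.03 to 2.88 and from 0.15 to 2.42, and the other 48 means lie between -0.45 and 0.49.

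The largest mean ratios were those of the serum amyloid A genes. Saa1 and Saa2 encode the lipid-binding proteins that rise most in the acute phase and circulate on high density lipoprotein. The level of Saa1 was 11.73, 12.03, 14.77 and 13.47 in the fasted livers of replicates 1 to 4 and 11.04, 11.88, 12.36 and 12.35 in the re-fed livers beside them. The fasted livers of replicates 3 and 4 stood above all other livers, and those of replicates 1 and 2 lay within the range of the re-fed livers. The ratios of Saa1 were 0.69, 0.15, 2.42 and 1.12, with a mean of 1.09 ± 0.97 (SD, n = 4), a 2.13-fold higher level with a 95% interval of 1.21 to 3.76 and an adjusted p of 0.126 in limma. The probe of Saa1 lies at chr7:53996070-53996129 on the minus strand in mm9.

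Saa2 had the same order of fasted livers. Its level was 11.03, 11.42, 14.74 and 13.45 in the fasted livers and 10.05, 11.45, 11.86 and 12.16 in the re-fed livers of replicates 1 to 4. On replicate 2 the fasted and the re-fed liver were at nearly the same level, and the groups overlapped. The ratios of Saa2 were 0.98, -0.03, 2.88 and 1.29, with a mean of 1.28 ± 1.20 (SD, n = 4), a fold of 2.43 with a 95% interval of 1.21 to 4.90 (adjusted p = 0.141, limma). The Saa2 probe is at chr7:54009622-54009681 on the plus strand in mm9.

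Both ratios were larger where the fasted liver carried Cy3. The mean ratio of Saa1 was 0.42 on the arrays with fasted liver in Cy5 and 1.77 on those with it in Cy3, and that of Saa2 was 0.48 and 2.08. In a model with a dye term, the same means of 1.09 and 1.28 had adjusted p-values of 0.0203 and 0.0284, and these were the 2 members called higher in that model, with 0 called lower, where 2.08% of all genes were called higher and 2.30% were called lower. The dye effects themselves were -0.67 for Saa1 and -0.80 for Saa2, neither past the limit (adjusted p = 0.11 and 0.14 in limma). Without replicate 3 the mean of Saa1 was 0.65 and that of Saa2 was 0.75, with adjusted p-values of 0.195 and 0.247 in limma, so that 1 array carried much of both means. Each orientation holds 2 other pairs of livers, so a dye effect and a difference between livers cannot be told apart within 1 gene.

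Haemoglobin transcripts, which come from red cells, were also uneven between these livers. The ratios of Hba-a1 were 2.45, -0.26, 2.48 and 0.34 on replicates 1 to 4, so that replicates 1 and 3 were high while replicate 2 was slightly below 0. The summed level of the 7 measured blood markers was 14.77 to 17.00 in fasted and 14.01 to 15.19 in re-fed livers, with Ppbp and S100a8 not above the filter. The part of blood content in the ratios of Saa1 and Saa2 was not tested.

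The upstream windows of the pair are shown because these 2 genes had the largest ratios, and because they carry the letters of a C/EBP site. Both are from RefSeq in GRCm38.p6 and run from 250 bases before to 50 bases after the start site, on the strand of the gene, at chr7:46742931-46743230 for Saa1 and chr7:46751583-46751882 for Saa2, and the capitals mark the C/EBP letters TTGCNNAA.
Saa1: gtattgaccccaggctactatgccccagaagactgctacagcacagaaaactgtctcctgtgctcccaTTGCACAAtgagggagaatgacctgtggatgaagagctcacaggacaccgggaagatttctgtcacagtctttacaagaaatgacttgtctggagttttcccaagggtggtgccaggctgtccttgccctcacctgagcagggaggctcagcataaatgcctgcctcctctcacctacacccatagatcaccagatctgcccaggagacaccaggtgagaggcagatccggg
Saa2: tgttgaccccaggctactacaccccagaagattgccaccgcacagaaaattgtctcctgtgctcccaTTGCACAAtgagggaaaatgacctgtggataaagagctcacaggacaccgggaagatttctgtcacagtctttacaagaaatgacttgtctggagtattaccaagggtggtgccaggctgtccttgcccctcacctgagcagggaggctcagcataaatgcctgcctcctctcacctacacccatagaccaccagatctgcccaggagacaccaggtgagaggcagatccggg
The windows of Saa1 and Saa2 were 96% identical over 299 aligned bases, and the C/EBP letters started 182 and 183 bases before the start site. The transcripts of the pair are also much alike. The 60-base probes of Saa1 and Saa2 matched over no more than 10 aligned bases, 8 of them identical, but whether either probe also binds the other transcript was not tested, so the pair is not counted as independent. The neighbouring family member Saa4, which is made constitutively, had ratios of -0.72, 0.58, 0.14 and 0.29 and a mean of 0.07.

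Like Saa1 and Saa2, the remaining positive acute phase genes did not pass. Hp encodes haptoglobin, which binds free haemoglobin. Its level was 16.93, 16.95, 16.79 and 16.66 in the fasted livers and 16.36, 16.34, 16.64 and 16.66 in the re-fed livers. All fasted livers were above all re-fed livers, although on replicate 4 the gap was 0.01. The mean ratio of Hp was 0.34 ± 0.31 (SD, n = 4), a fold of 1.26 with a 95% interval of 1.02 to 1.55, at an adjusted p of 0.185 in limma, with its probe at chr8:112099045-112099104 on the minus strand in mm9. Hpx, which encodes the haem-binding hemopexin, had ratios between -0.40 and 0.70.

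Orosomucoid, an abundant carrier of drugs and lipids, is encoded by Orm1 and Orm2. The ratios of Orm1 were 0.06, -0.84, 0.82 and 0.04, with a mean of 0.02 and an adjusted p of 0.973 in limma. Replicates 2 and 3 were nearly equal and opposite, and the mean is close to 0 for that reason and not because the livers were alike. Orm2 had the same order of arrays, from -0.69 on replicate 2 to 0.74 on replicate 3. The probes of Orm1 and Orm2 shared 13 of 15 aligned bases, and whether each binds both transcripts was not tested.

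Among the inter-alpha-trypsin inhibitor heavy chains, Itih3 had a mean ratio of 0.30 and Itih4 of 0.19. Itih4 gave -0.57 on replicate 2 and 0.37 to 0.59 on the other arrays, but its second probe gave 0.04 on replicate 2 and -0.11 to 0.54 on the others. Crp, whose product is a minor acute phase protein in the mouse, was below 0 on all 4 arrays, from -0.32 to -0.02, with a mean of -0.17 and an adjusted p of 0.284 in limma. Its liver levels overlapped.

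Apcs encodes serum amyloid P component, a pentraxin and the major acute phase pentraxin of mice, and had the lowest mean ratio of the 50. Its level was 8.40, 8.23, 8.66 and 8.54 in the fasted livers and 9.03, 9.30, 8.88 and 8.43 in the re-fed livers. The fasted livers of replicates 1 to 3 were below their re-fed partners, and the re-fed liver of replicate 4 was within the range of the fasted livers. The mean ratio of Apcs was -0.45 ± 0.51 (SD, n = 4), a fold of 0.730, with a 95% interval of the log2 ratio from -0.91 to 0.00 and an adjusted p of 0.235 in limma. Its mean ran from -0.64 to -0.25 when 1 replicate was left out, and was -0.25 without replicate 2. With fasted liver in Cy5 the mean was -0.85, and with it in Cy3 it was -0.05. The probe of Apcs lies at chr1:174824959-174825018 on the minus strand in mm9.

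Ahsg, the negative acute phase gene of fetuin-A, an inhibitor of calcification, had ratios of 0.54, 0.44, 0.00 and -0.14. Its mean was 0.21 with an adjusted p of 0.431 in limma, and the 2 dye orientations lay on opposite sides of 0.

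**Figure D2:**
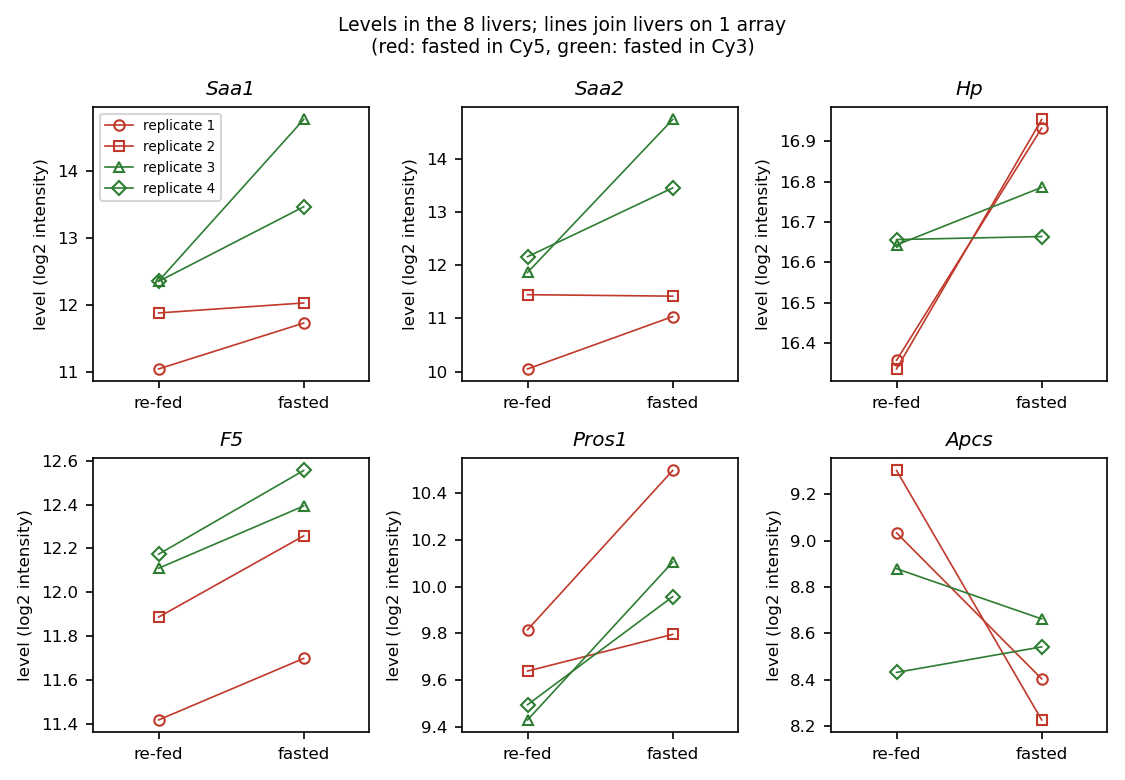
Levels (log2 intensity, each panel with its own axis) of 6 genes in the 8 livers, with a line joining the re-fed and the fasted liver of each array. The lines of F5 are nearly parallel, those of Saa1 and Saa2 are steep for replicates 3 and 4, and those of Hp are steep for replicates 1 and 2.

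The fibrinogen chains, which assemble into the clottable plasma protein, had small positive means. The ratios of Fgg, the gamma chain, were 0.28, 0.11, 0.23 and 0.87, with a mean of 0.37 and an adjusted p of 0.172 in limma. Its level was above that of all re-fed livers in every fasted liver. The ratios of Fgb, the beta chain, were 0.70, 0.57, -0.34 and 0.01, with a mean of 0.24 and an adjusted p of 0.522 in limma. Fgb was thus high where fasted liver carried Cy5 and not where it carried Cy3, with a dye effect of 0.40 (adjusted p = 0.048 in limma). The ratios of Fga, the alpha chain, were -0.05, 0.24, 0.13 and 0.51, with a mean of 0.21 and an adjusted p of 0.324 in limma, and its second probe had a mean of 0.31.

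The window of Fgb is shown as that of a subunit long known for interleukin-6 and C/EBP control, from RefSeq in GRCm38.p6 at chr3:83049814-83050113, with the C/EBP letters TTGCNNAA in capitals, 80 bases before the start site.
Fgb: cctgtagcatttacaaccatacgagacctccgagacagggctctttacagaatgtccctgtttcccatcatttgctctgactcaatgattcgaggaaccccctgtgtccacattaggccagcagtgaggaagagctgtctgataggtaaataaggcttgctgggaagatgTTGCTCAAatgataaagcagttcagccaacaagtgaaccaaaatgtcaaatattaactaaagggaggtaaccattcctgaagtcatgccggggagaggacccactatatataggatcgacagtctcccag

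Of the clotting factors and the contact system, F5 was the one member past the p limit. It encodes factor V, the cofactor that speeds the conversion of prothrombin. The level of F5 was 11.70, 12.26, 12.39 and 12.56 in the fasted livers and 11.42, 11.89, 12.11 and 12.17 in the re-fed livers. The fasted liver was higher on every array by a similar amount, but livers of different arrays overlapped. The ratios of F5 were 0.28, 0.37, 0.28 and 0.38, with a mean of 0.33 ± 0.05 (SD, n = 4), a fold of 1.26 with a 95% interval of 1.12 to 1.41 and an adjusted p of 0.0476 in limma. Its mean was 0.33 in both dye orientations. The second probe of F5 had a mean of 0.31 and an adjusted p of 0.084 in limma. The brightest probe of F5 lies at chr1:166150216-166150275 on the plus strand in mm9. The adjusted p of F5 was 0.0924 without replicate 1 and 0.154 to 0.176 without replicate 2, 3 or 4, so that it passed the p limit in 1 of these 4 fits. It did not pass with plain subtraction, with separate channels or with normexp on all spots, where its adjusted p was highest, at 0.558. With arrays centred on their medians the mean of F5 was 0.18 and its adjusted p was 0.372 in limma.

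The other 10 genes of this group had means between 0.09 and 0.34. F2, which encodes prothrombin, had ratios of 0.26, -0.05, 0.14 and 0.30 and a mean of 0.16, with an adjusted p of 0.343 in limma. The vitamin K-dependent factors F7, F9 and F10 had means of 0.09, 0.22 and 0.34. F9 and F10 were high on replicate 1, at 0.55 and 0.94, and the second probe of F10 had a mean of 0.08. The contact system genes F11, F12, Klkb1 (prekallikrein) and Kng1 (kininogen) had means of 0.15, 0.18, 0.13 and 0.25. Kng1 ranged from -0.17 to 0.94, and its second probe had a mean of 0.02. F13b, the carrier subunit of the fibrin-crosslinking enzyme, and Hrg, the histidine-rich glycoprotein that binds heparin and plasminogen, had means of 0.10 and 0.16.

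Among the anticoagulants and genes of fibrinolysis, Pros1 had the largest mean. It encodes protein S, the cofactor of activated protein C. The level of Pros1 was 10.50, 9.80, 10.10 and 9.96 in the fasted livers and 9.81, 9.64, 9.43 and 9.49 in the re-fed livers. The fasted liver was higher on each array, and the fasted liver of replicate 2 was just below the re-fed liver of replicate 1. The ratios of Pros1 were 0.68, 0.16, 0.68 and 0.46, with a mean of 0.49 ± 0.25 (SD, n = 4), a fold of 1.41 with a 95% interval of 1.18 to 1.69 and an adjusted p of 0.0533 in limma. Without replicate 2 the mean was 0.61 at an adjusted p of 0.0654, past both limits, and without replicate 1, 3 or 4 the adjusted p was 0.124 to 0.203. With normexp on all spots the mean of Pros1 was 0.26 and its adjusted p 0.558. The probe of Pros1 lies at chr16:62928674-62928733 on the plus strand in mm9.

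The window of Pros1 is shown because it holds the letters of a STAT site, TTCCNGGAA, in capitals, 92 bases before the start site, in RefSeq's GRCm38.p6 at chr16:62854057-62854356.
Pros1: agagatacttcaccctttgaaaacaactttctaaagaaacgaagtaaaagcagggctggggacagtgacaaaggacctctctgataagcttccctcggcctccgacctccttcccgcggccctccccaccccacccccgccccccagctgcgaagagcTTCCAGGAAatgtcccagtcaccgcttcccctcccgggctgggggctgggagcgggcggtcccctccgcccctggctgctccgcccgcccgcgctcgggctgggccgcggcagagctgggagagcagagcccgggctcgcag

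Proc, the gene of protein C itself, had ratios of 0.10, 0.07, 0.40 and 0.47 and a mean of 0.26, with an adjusted p of 0.190 in limma and no overlap between the groups of livers. Plg, which encodes the plasmin precursor, had a mean of 0.31 and an adjusted p of 0.153 in limma. Vtn, the adhesive protein vitronectin that stabilises a plasminogen activator inhibitor, had a mean of 0.11, and Proz, whose product helps to inhibit factor X, had a mean of 0.08. Cpb2, the carboxypeptidase that slows fibrinolysis, was at -0.37 and -0.51 with fasted liver in Cy5 and at 0.35 and 0.30 with it in Cy3, and had a mean of -0.06.

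Genes that start complement were close to 0. C1qa, C1qb and C1qc encode the 3 chains of C1q and are made in the liver by macrophages rather than hepatocytes. The ratios of C1qa were 0.01, -0.18, 0.38 and -0.07, those of C1qb were 0.60, 0.05, 0.18 and -0.43, and those of C1qc were 0.25, -0.12, 0.17 and -0.12. Their means were 0.04, 0.10 and 0.04, with adjusted p-values of 0.794 to 0.892 in limma and overlapping livers. The 12 macrophage markers measured, of 14 on the array, had a median ratio of 0.06 with 0 called, and their summed level was 14.15 to 14.59 in fasted and 13.81 to 14.45 in re-fed livers. Cd68 and Cd163 were not above the filter. On replicates 1 to 4 the median ratio of these 12 markers was 0.41, -0.24, 0.35 and -0.19, highest on replicate 1. Marco, 1 of the 12, was instead highest on replicate 3, at 0.92, and was lowest on replicate 2, at -0.63.

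The mannose-binding lectins Mbl1 and Mbl2, which recognise microbial sugars, had means of -0.03 and -0.13, and their proteases Masp1 and Masp2 had means of 0.04 and 0.05. The SD of Masp1 over the arrays was 0.07, so the 4 pairs of livers were close to each other for that gene. The 95% interval lay within 1.5-fold either way for all 7 genes of this group.

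In the rest of the cascade 11 genes were measured. C3, the protein on which all routes of complement meet, had ratios of 0.47, -0.18, -0.28 and -0.32 and a mean of -0.08, with an adjusted p of 0.826 in limma. Replicate 1 was the one array above 0, and the second probe of C3 had a mean of -0.11. C4b, which joins with C2 to cut C3, was above 0 on all 4 arrays at 0.54, 0.08, 0.51 and 0.26, with a mean of 0.35 and an adjusted p of 0.108 in limma. C2 itself ranged from -0.43 on replicate 2 to 0.68 on replicate 3, with a mean of 0.21.

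The alternative pathway genes Cfb, whose product is the protease of its convertase, and Cfi, whose product degrades C3b, had means of 0.07 and 0.13. Cfd encodes factor D, the protease that activates factor B and a product mainly of adipocytes. The ratios of Cfd were -0.22, 0.55, -1.37 and 0.42, with a mean of -0.15 and an adjusted p of 0.841 in limma. On replicate 3 the re-fed liver stood at 7.78 and the fasted liver at 6.41, the highest and the lowest of the 8 livers. The same re-fed liver had the raised acinar markers given above. Of 8 adipocyte markers 3 were measured, namely Fabp4, Car3 and Cidec, while Adipoq, Retn, Plin1, Lep and Cidea were not above the filter. The summed level of Fabp4, Car3 and Cidec was 13.15 to 14.42 in fasted and 13.73 to 14.11 in re-fed livers. Whether this sum measured adipose tissue in these livers was not tested. The part of other tissue in Cfd was not tested.

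The genes of the membrane attack complex, which forms the lytic pore, differed between the 2 orientations in part. C8b was at -0.25 and -0.80 with fasted liver in Cy5 and at 0.48 and 0.53 with it in Cy3, for a mean of -0.01 and a dye effect of -0.51 (adjusted p = 0.047 in limma). C6 and C8a had means of 0.13 and 0.09, and C8g, whose product is a small lipocalin, had a mean of 0.02 with an SD of 0.17. C9, the pore subunit and an acute phase gene, gave -0.47 on replicate 2 and 0.35 to 0.69 elsewhere, with a mean of 0.31 and an adjusted p of 0.437 in limma.

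The dye term of the model, which measures the difference between the 2 orientations and so cannot tell the dye from the livers on those arrays, differed from 0 for part of these genes. By the brightest probe 11 of the 50 had such a difference at an adjusted p under 0.10, where 15.3% of all genes did. The dye swap balances a dye effect in the mean but leaves it in the spread. With a dye term and no limit on the fold, 12 members were higher, namely Fgg, Fgb, F5, F9, Proc, Pros1, Plg, C4b, Saa1, Saa2, Hp and Ahsg, and Apcs was lower, against 13.0% of all genes higher and 13.9% lower. In this model the share of members that were higher was thus above that of all genes, and the share that were lower was below it. Of the members that were higher, Fgb, F9 and Ahsg had means below 0 with fasted liver in Cy3, at -0.16, -0.03 and -0.07. The model takes the difference between orientations out of the spread, also where it lies in the livers. The ratios were those after loess, and with median centring 24 of the 50 means were above 0. Of the 50, 3 (Fgg, Proc and Hp) had all fasted livers above all re-fed livers and 0 had all below, whereas 6.02% of all genes had all fasted livers above and 7.77% had all below.

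**Figure D3:**
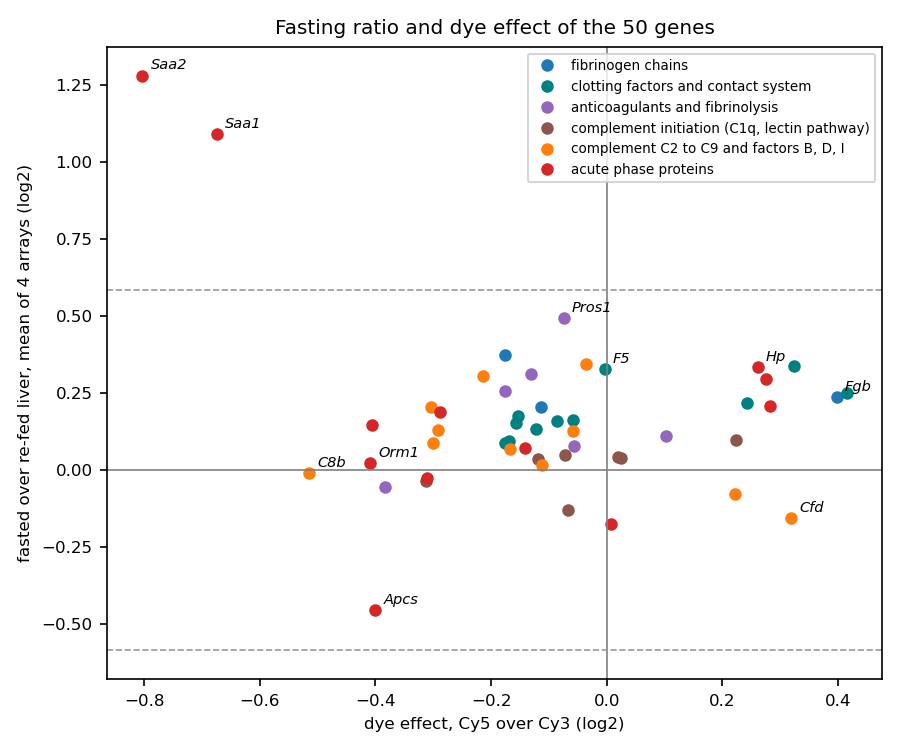
Mean log2 ratio of fasted over re-fed liver against the dye effect (log2 of Cy5 over Cy3, the term of the dye in the model) for the 50 genes, coloured by role, with dashed lines at 1.5-fold. Saa2 and Saa1 combine the highest fasting ratios, 1.28 and 1.09, with the most negative dye effects, -0.80 and -0.67, while F5 has a dye effect of 0.00.

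Other genes of the same systems were taken from lists that were chosen with earlier results of these data known. Of 20 other clotting and fibrinolysis genes tested, 7 means were above and 13 below 0, 0 genes were called, and 3 were lower at an adjusted p under 0.10 with no limit on the fold, where 6.31% of all genes were. With arrays centred on their medians these 3, Lman1, Mcfd2 and Serpina10, passed both criteria, with means of -0.63, -0.71 and -0.72 and adjusted p-values of 0.0186, 0.0559 and 0.0304 in limma. That centring moved the whole array down, with 230 probes called higher and 635 lower in place of 335 and 410. Lman1 and Mcfd2 encode the cargo receptor that carries factors V and VIII out of the endoplasmic reticulum. The ratios of Lman1 were -0.55, -0.56, -0.39 and -0.40, with a mean of -0.47 and an adjusted p of 0.0223 in limma, and those of Mcfd2 were -0.08, -0.39, -0.86 and -0.91, with a mean of -0.56 and an adjusted p of 0.0925. All fasted livers were below all re-fed livers for both genes. They thus ran opposite to F5, the transcript of one of their cargoes. Serpina10, the protein Z-dependent inhibitor, had a mean of -0.57 and an adjusted p of 0.0805 in limma. Its second probe had a mean of -0.48 and an adjusted p of 0.0255. Without 1 replicate the adjusted p of Lman1 stayed under the limit, at 0.0588 to 0.0956. That of Mcfd2 was 0.182 to 0.289 without replicate 2, 3 or 4, and that of Serpina10 was 0.161 to 0.196 without replicate 1, 2 or 3. Mcfd2 passed both criteria without replicate 1 (-0.72, adjusted p = 0.0471, limma) and Serpina10 without replicate 4 (-0.70, adjusted p = 0.0982). With plain background subtraction both passed, at -0.59 and -0.60 (adjusted p = 0.0798 and 0.0821, limma).

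Of 22 other complement genes 0 were called, and their means lay between -0.08 and 0.29. Cpn2, the carrier subunit of the carboxypeptidase that inactivates anaphylatoxins, was the one past the p limit, with a mean of 0.29 and an adjusted p of 0.0707 in limma, while its other probe had a mean of 0.01. Of 28 other acute phase genes 1 was called higher and 1 lower, where 1.82% of all genes were called higher and 2.14% lower. Tat, the tyrosine-degrading enzyme induced by glucagon and glucocorticoid and counted here for its interleukin-6 response, had ratios of 1.19, 1.25, 0.61 and 0.30 and rose by a mean of 0.84 (adjusted p = 0.0452, limma). Steap4, a metalloreductase, had ratios of -0.64, -0.46, -1.02 and -0.60, with a mean of -0.68, and fell (adjusted p = 0.0224, limma). Tat did not pass without replicate 1, 2 or 3 (adjusted p = 0.104 to 0.143), with median centring (0.68, adjusted p = 0.112) or with the scanner software's processed signals (0.78, adjusted p = 0.104), and Steap4 did not pass without replicate 3, where its mean was -0.56, or with normexp on all spots, where it was -0.29 (adjusted p = 0.558). The strongly inducible Lcn2, which binds bacterial siderophores, had its lowest ratio on replicate 4, at -0.53, and its highest on replicate 2, at 1.004, and Saa3 had a mean of -0.11.

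The regulators of the acute phase included genes that passed both criteria. Of 24 tested, 4 rose and 2 fell in fasted liver, where 1.82% of all genes were called higher and 2.14% lower. Cebpb and Cebpd, basic leucine zipper factors of the acute phase and of gluconeogenesis, had the largest rises. The ratios of Cebpb were 0.86, 1.91, 1.40 and 1.42, with a mean of 1.40 and an adjusted p of 0.0116 in limma, and those of Cebpd were 1.32, 2.14, 0.92 and 1.001, with a mean of 1.35 and an adjusted p of 0.0206. Every fasted liver was above every re-fed liver for both genes, and no array was below 0.86.

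Il6ra, the alpha chain of the interleukin-6 receptor, had ratios of 0.63, 1.59, 0.58 and 0.52, a mean of 0.83 and an adjusted p of 0.0574 in limma. Nfkbia, which holds NF-kB in the cytoplasm, had ratios of 0.39, 0.60, 0.89 and 1.03, a mean of 0.73 and an adjusted p of 0.0255. Fasted and re-fed livers did not overlap for either gene. Il6ra did not pass without replicate 2, where its mean was 0.58, without replicate 3 (adjusted p = 0.14, limma) or without replicate 4 (adjusted p = 0.107), nor with median centring (0.69, adjusted p = 0.134), and Nfkbia did not pass without replicate 3 (adjusted p = 0.11).

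The factors that fell were Onecut1 and Foxa2, both of which maintain hepatocyte genes. Onecut1 had ratios of -0.87, -1.20, -1.11 and -0.51, with a mean of -0.92 and an adjusted p of 0.0161 in limma. Foxa2 had ratios of -1.64, -0.59, -0.45 and -0.37, with a mean of -0.76 and an adjusted p of 0.0999, at the edge of the limit. Its second probe, with a mean of -0.66, did not pass, and neither did the brightest when any 1 replicate was left out, with a mean of -0.47 without replicate 1 and adjusted p-values of 0.149 to 0.204 without replicate 2, 3 or 4. Onecut1, Cebpb and Cebpd passed without any 1 replicate. Cebpa, the C/EBP factor of resting hepatocytes, had a mean of -0.47 and an adjusted p of 0.0787 in limma, under the fold limit. With median centring Cebpa passed both criteria, at -0.62 (adjusted p = 0.0554, limma).

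Stat3, the factor that interleukin-6 activates, had ratios of 0.31, 0.38, 0.52 and 1.06 on its brightest probe, with a mean of 0.57 and an adjusted p of 0.066 in limma, just under the fold limit. Stat3 passed both criteria with the scanner software's processed signals (0.62, adjusted p = 0.0564, limma) and without replicate 1 (0.65, adjusted p = 0.0792). Its second probe had a mean of 0.16. Socs3, the feedback inhibitor that STAT3 induces, had ratios of -1.003, -0.25, 0.71 and 1.39, so that it was below 0 with fasted liver in Cy5 and above 0 with it in Cy3, with a mean of 0.21 and an adjusted p of 0.812. Creb3l3 encodes a membrane-bound factor that is cleaved to drive acute phase and fasting genes. Its ratios were 0.60, 0.76, 0.00 and 0.07, with a mean of 0.36 and an adjusted p of 0.224 in limma.

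**Figure D4:**
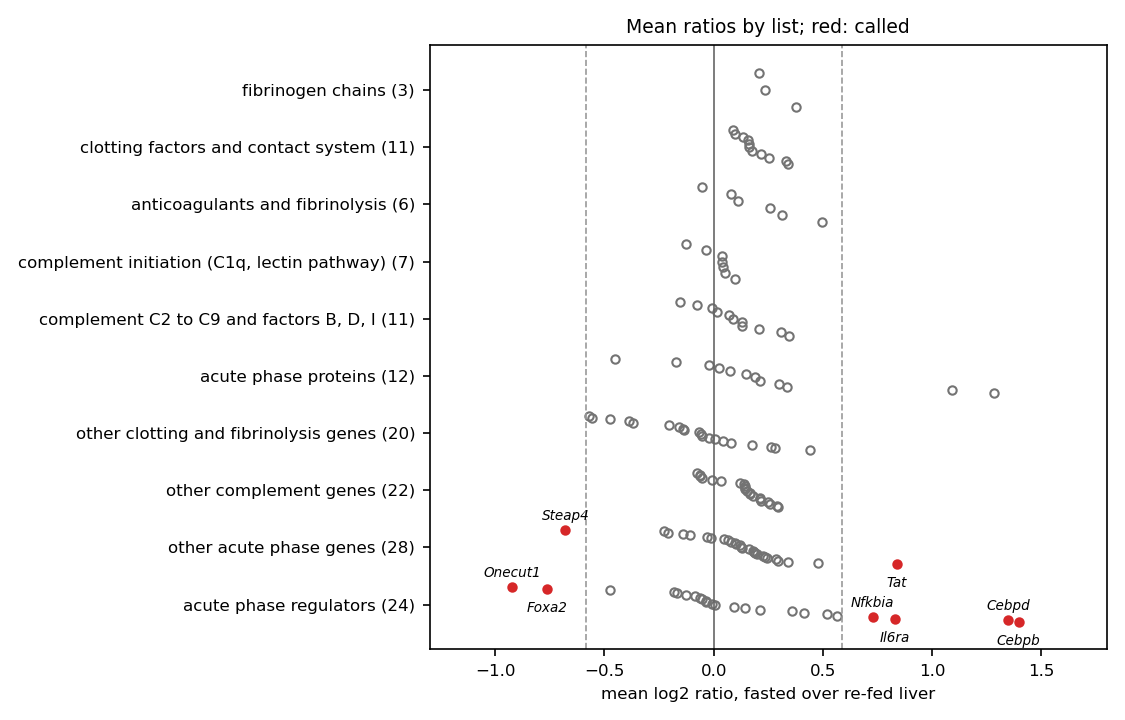
Mean log2 ratio of fasted over re-fed liver for the genes tested in each list (number of genes in parentheses), with called genes filled in red and dashed lines at 1.5-fold. The 50 genes, in the 6 upper rows, hold no filled symbol, and the regulators in the lowest row hold 6, from Onecut1 at -0.92 to Cebpb at 1.40.

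Promoter windows of the reference table covered 39 of the 50 members, in 40 windows. The C/EBP letters TTGCNNAA on either strand were in 15 of the 39 (38.5%), beside 10.8% of 32851 windows of the same length. These 15 were F9, F11, Fga, Fgb, Klkb1, Cpb2, Hrg, C3, C9, Saa1, Saa2, Saa4, Hpx, Orm2 and Ahsg, and their mean ratios ran from -0.08 for C3 to 1.28 for Saa2, with 0 called. The STAT letters TTCCNGGAA were in Fga and Pros1, beside 1.15% of all windows.

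The full cAMP response element TGACGTCA was in 1 member, Cpb2, beside 1.79% of windows, and its shorter form TGACG, which it contains, was in 8 members (20.5%), beside 20.8%. The TATA letters TATAAA were in 8 members, beside 13.6%. The letters of the NF-kB site were in C1qc alone, beside 8.46% of windows, and those of the HNF1 site and of the endoplasmic reticulum stress element were in 0 of the 39, beside 0.00913% and 0.119% of windows. These matches describe letters only.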

How the data were processed

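Gene expression was measured on 4 two-colour Agilent arrays of 44397 spots, each with 200 ng of RNA from 1 fasted and 1 re-fed liver. The authors deposited scanner files with the raw intensity per spot and background, and a table of log2 ratios normalized by loess with limma, per the labels, with the background step not stated; the latter served as an alternative. Coordinates of probes are those of the files (mm9).

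Median intensities were processed in limma 3.58.1 under R 4.3.3. Spots with a local background over 3 times the array's median were left out, and normexp (offset 50) corrected the background. Ratios were normalized by loess, outlier-flagged spots were left out, and spots of a probe were averaged. Probes well above background on all 4 arrays in at least 1 condition were tested (19721 of 39429). The rule on local background was adopted after values of these data had been seen.

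The 4 ratios were fitted with lmFit and eBayes, as a two-sided test, and p-values were adjusted by Benjamini-Hochberg across the tested probes. Levels of single livers were separated from the ratios after Aquantile normalization between arrays. The lists, the members and the tests were chosen with earlier results of these data known. Values on each array are given for the fibrinogen and C1q chains, Saa1, Saa2, F2, C3, Hp, Orm1, Cfd and Ahsg, and for called genes of the other lists with Il6ra, Stat3, Socs3, Creb3l3 and Cebpb; further genes were named after their values were seen. The steps were tested on simulated data. The number of arrays limits the precision. Promoter windows came from RefSeq (GRCm38.p6), and a window was counted once per motif on either strand.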

Additional observations from a re-analysis of the deposited data

Results flagged for a closer look

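In a scan of 65 named genes for 1 array far from the other 3, C3 and Il6ra stood out. The ratio of C3 on replicate 1 was 0.47, where the other arrays gave -0.32 to -0.18, and the ratio of Il6ra on replicate 2 was 1.59, where the other arrays gave 0.52 to 0.63. Chance flags about 1 gene in 20 by this measure.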

How the results depend on the processing

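Over 18 alternatives, 885 of 900 values of a member stayed uncalled and moved by less than the spread between arrays. Another 7 gained a call, and 8 uncalled values moved further. No member was called in the main fit, so no call could be lost and no called value could change sign. Means of uncalled members did change sign, and 24 of the 50 were above 0 with median centring, where 41 were without it. The count of members called higher was 2 with a dye term and 2 with SAM rebuilt over 16 sign flips (Saa1 and Saa2 in both), 2 with no fold limit (F5 and Pros1), and 0 to 1 when 1 replicate was left out (Pros1 without replicate 2); 0 were called lower throughout. The median of the members was -0.011 with median centring and 0.08 to 0.18 when 1 replicate was left out. Over the whole array 335 probes were called higher and 410 lower. These counts were 5 and 16 with normexp on all spots, 550 and 713 with plain subtraction, 686 and 904 with the scanner software's processed signals, 230 and 635 with median centring, 933 and 1213 with no fold limit, and 99 and 132 with a 2-fold limit. Leaving out 1 replicate gave 208 to 412 higher and 256 to 525 lower, the lowest without replicate 3. The array itself pairs the livers, and separate channels with no replicate block, which ignore that pairing, gave 342 and 415. Among the genes called and described in the report, 8 did not pass with normexp on all spots, with means of 1.27 for Cebpb, 1.03 for Cebpd, 0.70 for Il6ra, 0.44 for Nfkbia, -0.53 for Onecut1, -0.64 for Foxa2, 0.89 for Tat and -0.29 for Steap4 (adjusted p = 0.303 to 0.558). Foxa2 also did not pass with the processed signals, mean pixel signals, no filter on dim probes or the mean over its probes (adjusted p = 0.101 to 0.157). The cause of these shifts was not tested.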
